A study of Homo sapiens with 8 samples.

Results

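The 10 genes followed here are switched on by p53 and were taken for this report as a comparison set in SON TSA-seq data on nuclear speckles: CDKN1A, MDM2, BBC3, GADD45A, BAX, FAS, SESN1, TP53I3, RRM2B and ZMAT3. They were chosen by name, and each was located by its hg19 transcription start site to the nearest kb. All 10 genes were found. Each start site lay in 9 overlapping windows of 100 kb and 9 of 50 kb, which gave 180 windows out of 278316 windows of 100 kb and 556938 of 50 kb in all. The windows that hold 1 start site overlap each other, so they are not replicates.

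The cells were 786-O, an established human clear cell renal carcinoma line that lacks functional VHL and therefore carries constantly active HIF-2α. Cells were kept for 3 h with DMSO, the vehicle, or with the HIF-2α inhibitor PT2399 at 2 µM, and DNA near the speckle protein SON was labelled with biotin, pulled down and sequenced. Each treatment has 2 libraries from the SON pulldown and 2 from input DNA, which makes 8 in all. Titles gave the groups, because the antibody or treatment field contradicts the title in 4 of the 8, and the columns named control and treatment were read as DMSO and PT2399. No agent that activates p53 is named in the labels, so the values describe p53 target loci in vehicle-treated and HIF-2α-inhibited cells of 1 line.

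p53 is a transcription factor that is stabilised by DNA damage and other stress and then induces genes for cell cycle arrest, apoptosis, DNA repair and its own negative feedback. It binds a response element made of a pair of similar half-sites. Nuclear speckles are bodies rich in splicing factors, and many highly active, gene-dense stretches of the genome lie close to them. p53 targets are among the genes whose position relative to speckles has been studied after p53 activation, which makes them a natural set beside HIF-2α targets.

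The deposited values are log2 concentrations of SON signal, given as the authors' mean for each treatment in each window. A higher value means more pulled-down DNA and so a position nearer to speckles. A change is PT2399 minus DMSO on this log2 scale. No value per library was used, so no spread between replicates can be given, and the depth of the libraries is unknown. The authors' FDR is the measure of error, with a window called at an FDR of at most 0.01, and it may reflect technical spread, since the labels do not say whether replicates were separate cultures. Many windows sit at a floor of -0.07 with DMSO and -0.11 with PT2399. A window is termed measured when both treatments reach 2, which held for 32.4% of the 100 kb and 32.1% of the 50 kb windows. The measured windows of the whole genome had a median change of -0.13 at 100 kb and -0.12 at 50 kb. The floor is not an absence of reads: at TP53I3 a 100 kb window starting at 24300001 on chromosome 2 lay at the DMSO floor, although the 50 kb window with the same start stood at 3.82. A change that starts or ends at the floor therefore has no interpretable size.

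Of the genes, 3 carry a sequence close to the p53 consensus response element near a start site listed by RefSeq, shown here because such elements are how p53 recognises its targets. The search covered 250 bases before to 50 bases after each RefSeq start on GRCh38.p14. It allowed at most 3 mismatches over the 20 bases of the consensus, with the C and G core of both half-sites intact. The consensus is its own reverse complement, so 1 pass reads both strands. Of the 10 genes, 8 matched the promoter table by symbol, with 16 promoters, and GADD45A and RRM2B did not. Matches lay in MDM2, FAS and SESN1, each at a start that lies downstream of another listed start of the gene. Among all 35116 promoters of this length 1.12% held a match. Capitals mark the match, and each stretch stops before the start site.
MDM2, chr12:68808863-68809002, plus strand, 2 mismatches: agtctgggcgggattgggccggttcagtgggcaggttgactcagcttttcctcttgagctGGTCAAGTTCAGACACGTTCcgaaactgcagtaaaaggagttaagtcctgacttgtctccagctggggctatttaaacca
FAS, chr10:88991249-88991388, plus strand, 2 mismatches: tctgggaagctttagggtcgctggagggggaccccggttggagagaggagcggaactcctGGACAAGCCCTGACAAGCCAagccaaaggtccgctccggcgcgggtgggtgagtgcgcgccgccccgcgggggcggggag
SESN1, chr6:109008989-109009097, minus strand, 3 mismatches: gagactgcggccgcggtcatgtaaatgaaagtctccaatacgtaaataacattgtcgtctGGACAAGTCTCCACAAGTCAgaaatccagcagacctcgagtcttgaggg
These are letters of the reference genome and not measured binding, and they are far shorter than a SON window, which cannot resolve them. The SON start sites are in hg19, so whether each match lies inside its gene's SON windows was not tested. At SESN1 the promoter with the match, 109008939 to 109009238, and the listed promoter at 109094797 to 109095096 are too far apart to share a 50 kb window. The remaining 5 genes had no match in this window of letters, which says nothing about p53 at elements farther away. Promoter GC content did not run in the order of SON level. It was 67.3% for BAX, 48.0% for BBC3 and 74.3% for CDKN1A, the 3 genes with the highest SON levels, and 37.7% and 71.7% for the 2 promoters of ZMAT3, the gene with the lowest, against a median of 58.7% over all promoters.

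In DMSO the 10 genes spanned nearly the whole range of SON signal, down to the floor. BAX, which encodes a pore-forming protein of the mitochondrial apoptosis pathway, had the highest mean level of the 10 at 100 kb, 11.21, and exceeded on average 98.7% of all windows of its set. BBC3, which encodes the apoptosis inducer PUMA, came next with 10.79 and a rank of 97.1%. CDKN1A, which encodes the cell cycle inhibitor p21, had 9.73 and 90.7%. MDM2, the ubiquitin ligase that degrades p53, had 8.69 and 84.3%. Between neighbours in this order from BAX down to MDM2 the ranges over the 9 windows did not overlap, whereas from MDM2 downwards every pair of neighbours overlapped.

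The lower part of the order was made of genes beside or inside regions at the floor. GADD45A, a stress sensor of growth arrest and DNA repair, had a mean DMSO level of 7.36 at 100 kb (rank 77.1%), and TP53I3, an oxidoreductase induced by p53, had 6.05 (66.5%). RRM2B, the p53-induced subunit of ribonucleotide reductase, stood at 3.92 (47.4%), FAS, a death receptor, at 1.73 (29.8%), and SESN1, a sestrin that restrains mTORC1 signalling, at 1.52 (22.9%). ZMAT3, an RNA-binding zinc finger protein, was at the DMSO floor in all 18 windows. At 50 kb the order was the same except that FAS, at 4.45, moved ahead of RRM2B, at 3.63. The median of the 10 mean ranks was 71.8% at 100 kb and 73.6% at 50 kb. Against measured windows alone it was 24.8% over both sizes.

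**Figure D1:**
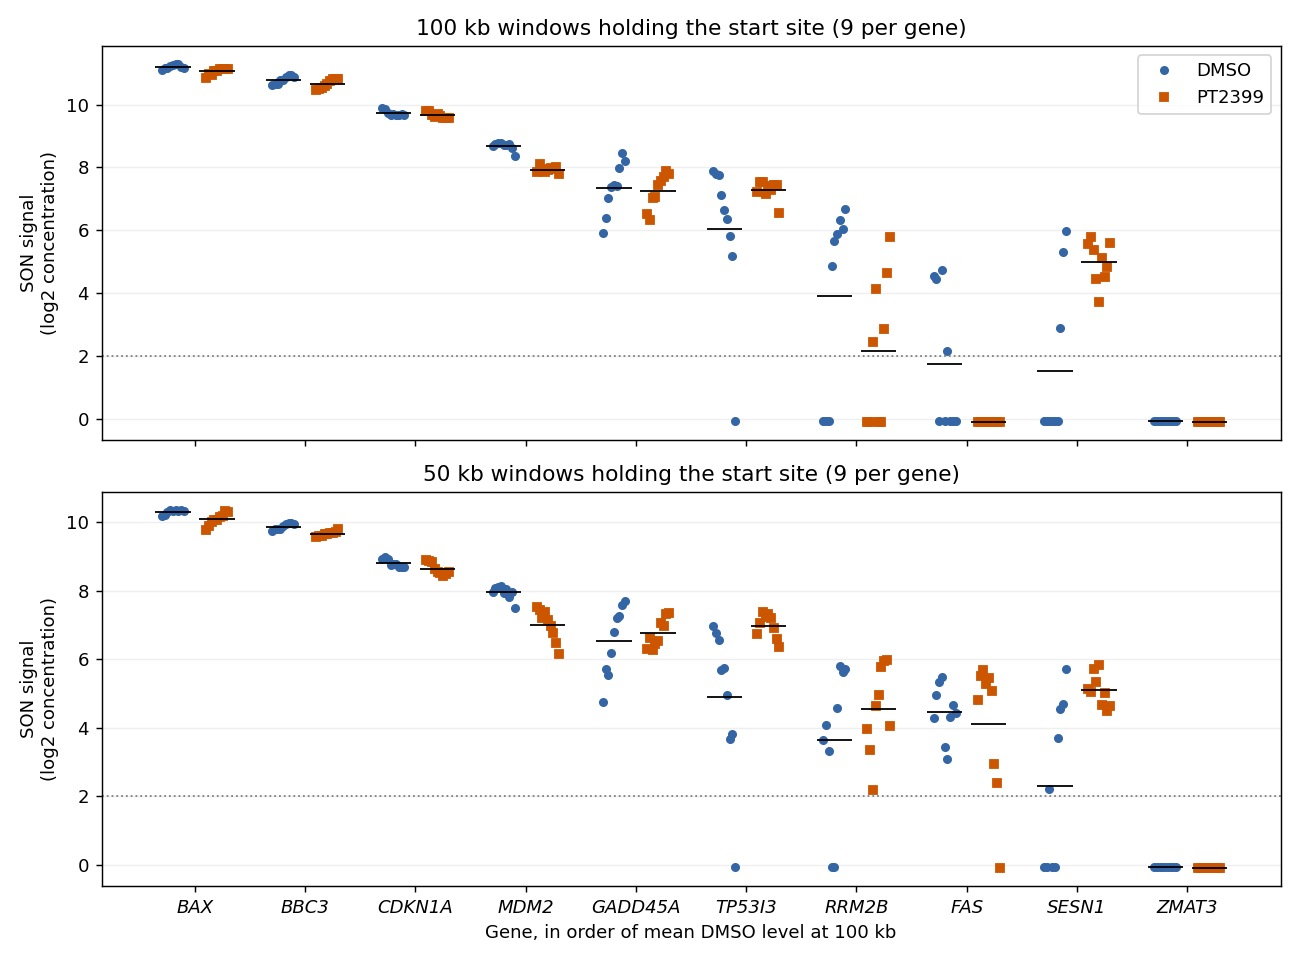
SON signal (log2 concentration) in the 9 windows of 100 kb (top) and 50 kb (bottom) that hold each start site, for DMSO (blue circles) and PT2399 (orange squares), with black bars at the mean over windows and a dotted line at 2. BAX, BBC3 and CDKN1A form tight groups between 9.56 and 11.30 at 100 kb, TP53I3, RRM2B, FAS and SESN1 spread down to the floor in at least 1 treatment, and ZMAT3 stays there in both.

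With PT2399, 0 of the 10 genes had a window called lower at either size, and 1 of the 10, TP53I3, had a window called higher, at 100 kb only (authors' deposited tables, FDR at most 0.01). Over all points of the genome that have 9 windows of 100 kb above them, 2.17% had at least 1 called lower and 0.661% at least 1 called higher. The same shares at 50 kb were 0.763% and 0.245%. The 10 genes were chosen by name and are not a random draw, and ZMAT3, at the floor in both treatments, could not be called. The counts of 0 and 1 were therefore not tested against these shares and are a description only. At an unadjusted p below 0.05 in the authors' deposited tables, lower windows occurred at BBC3, BAX and RRM2B at 100 kb and at MDM2, BBC3, BAX and FAS at 50 kb. Higher windows at that p occurred at SESN1 and TP53I3 at 100 kb and at SESN1, TP53I3 and RRM2B at 50 kb. Of the points of the genome, 14.9% had such a lower window and 6.14% such a higher window at 100 kb, and 13.3% and 7.47% at 50 kb. With an FDR of at most 0.05 in the authors' deposited tables, BAX and RRM2B had lower windows at 100 kb, where 5.11% of points did, and BAX at 50 kb, where 2.21% did. TP53I3 had a higher window at that FDR at both sizes, against 1.62% and 0.83% of points. With an FDR of at most 0.1 the lower counts stayed at 2 and 1 genes, against 7.85% and 3.87% of points, and SESN1 joined TP53I3 among the higher at 100 kb, against 2.53%, and not at 50 kb, against 1.55%. None of the 10 genes was in the authors' deposited lists of genes at lower windows. Of other protein-coding genes, 4.28% were in the 100 kb list and 1.10% in the 50 kb list, so 0 of 10 is no departure from these shares.

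The mean change over windows was below 0 for 8 of the 10 genes at 100 kb and for 6 of 10 at 50 kb, counting ZMAT3, which is at the floor throughout. Over all points of the genome 84.5% and 81.7% had a mean change below 0, floor windows included, and over points with all 9 windows measured 72.6% and 69.2%. The median over the genes was -0.11 at 100 kb and -0.10 at 50 kb, close to the medians of -0.13 and -0.12 over all measured windows. Only 5 of the 10 genes had all 9 windows measured at each size, namely CDKN1A, MDM2, BBC3, GADD45A and BAX, so the median over the 10 genes mixes measured changes with changes from the floor. The counts of lower genes do so as well. Over the measured windows of both sizes, 5 of the 9 genes with any such window had a mean change below 0. FAS, counted as lower at both sizes, had a mean change of 0.19 there.

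**Figure D2:**
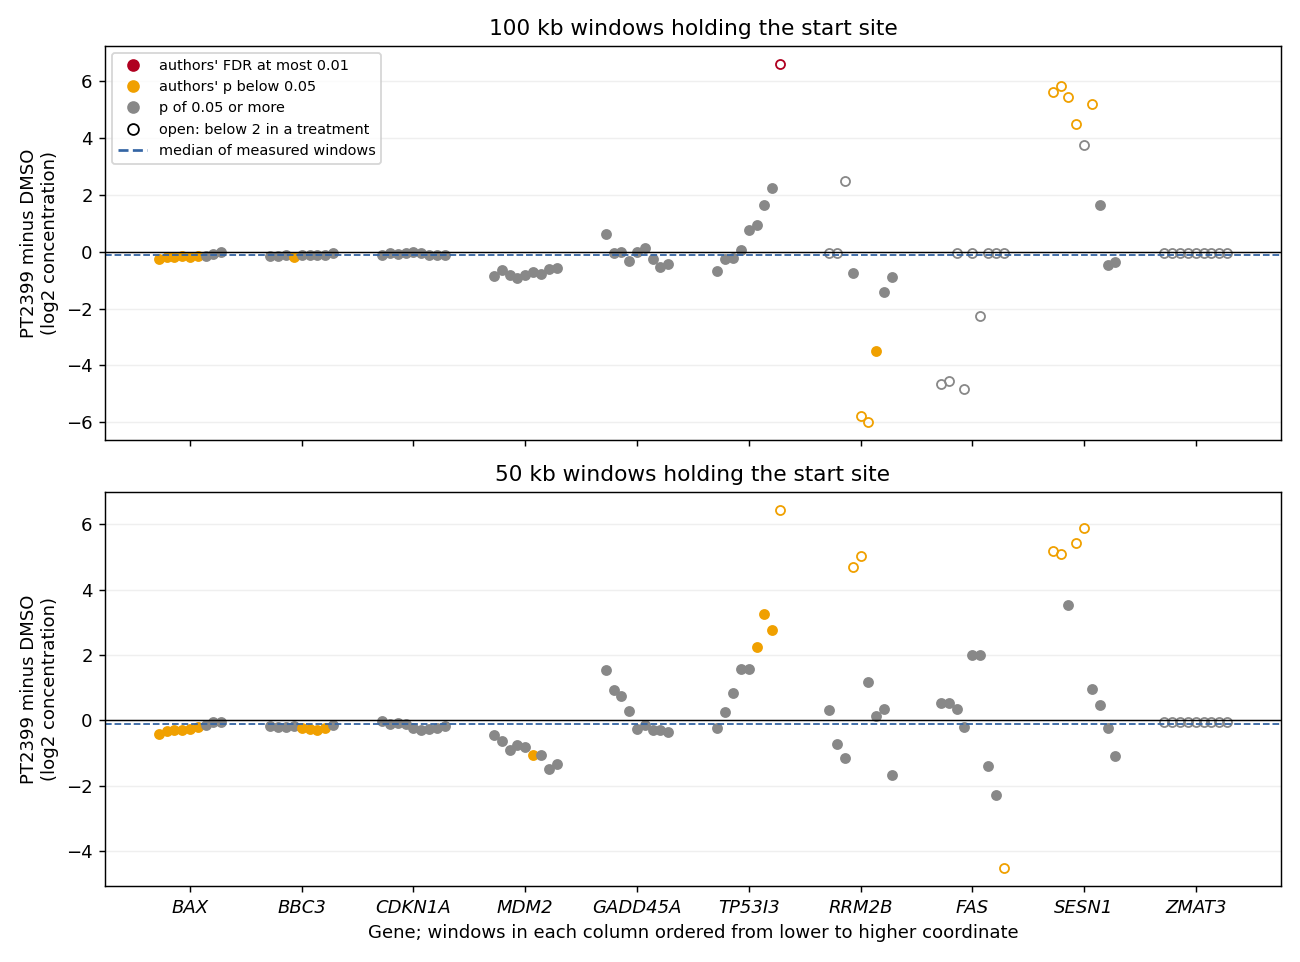
Change in SON signal (PT2399 minus DMSO, log2 concentration) in each window that holds a start site, at 100 kb (top) and 50 kb (bottom), with windows of a gene ordered by coordinate. Open circles have a treatment below 2, red marks the authors' FDR of at most 0.01, orange their p below 0.05, and the dashed line the median of measured windows. BAX, BBC3 and CDKN1A lie close to the dashed line, the MDM2 windows all lie below 0, and the single red circle is the TP53I3 window with a change of 6.62 from the DMSO floor.

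BAX and BBC3, which act in the mitochondrial apoptosis pathway and lie on the same chromosome arm, had the highest SON levels of the genes followed. Their differences between treatments missed the threshold. At BAX the 100 kb windows ran from 11.10 to 11.30 with DMSO and from 10.86 to 11.15 with PT2399. The mean change was -0.15, with single windows from -0.24 to -0.02. The DMSO and PT2399 ranges overlapped, but each of the 18 windows was lower with PT2399 than the same window with DMSO. This was not particular to BAX. Of the 90 windows of 100 kb within 500 kb of its start site, 89 were lower. Measured 100 kb windows of the genome near level 11.25 had a 90th percentile change of -0.01. The lowest FDR was 0.0196 at 100 kb and 0.0220 at 50 kb in the authors' deposited tables, short of the threshold. The largest changes lay in the windows that reach farthest toward lower coordinates, at -0.24 and -0.41 for the 2 sizes.

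BBC3 lies on the same chromosome arm as BAX, with start sites at 47.735 and 49.458 Mb of chromosome 19. Its 100 kb windows ran from 10.62 to 10.95 with DMSO and from 10.48 to 10.83 with PT2399, and its mean change was -0.12, with every window between -0.17 and -0.05. All 18 windows were lower with PT2399, as were 87 of the 90 windows of 100 kb within 500 kb of the start site. Measured 100 kb windows of the genome near level 10.75 had a 90th percentile change of -0.013. The lowest FDR was 0.207 at 100 kb and 0.134 at 50 kb in the authors' deposited tables. At 50 kb the mean changes were -0.22 for BAX and -0.21 for BBC3.

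CDKN1A and GADD45A act in cell cycle arrest, and neither had a called window. CDKN1A, at 36.646 Mb of chromosome 6, ran from 9.66 to 9.90 with DMSO and from 9.56 to 9.81 with PT2399 at 100 kb. Its mean change was -0.07 at 100 kb and -0.17 at 50 kb, the groups overlapped, and the lowest FDR at either size was 0.570 in the authors' deposited tables. GADD45A, at 68.151 Mb of chromosome 1, ran from 5.91 to 8.45 with DMSO and from 6.34 to 7.90 with PT2399. Its mean change was -0.10 at 100 kb but 0.24 at 50 kb, and single windows went from -0.55 to 1.53 over both sizes, so no direction can be given. The lowest FDR of GADD45A was 0.316 in the authors' deposited tables.

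The 3 genes with the strongest signal had errors small enough to bound the change. A standard error was taken for each window from the deposited change and p-value, and the median over a gene's windows gave an approximate 95% interval around its mean change. At 100 kb this was -0.29 to -0.01 for BAX, -0.27 to 0.03 for BBC3 and -0.34 to 0.20 for CDKN1A. All 3 intervals lie above -0.44, the median change of the 1403 windows that the authors list as lower at 100 kb, a set selected for its change. Listed changes came as near to 0 as -0.17, however, which lies inside all 3 intervals. After subtracting the median change of the measured windows of each set, the mean changes at 100 kb became -0.02 for BAX, 0.00 for BBC3 and 0.06 for CDKN1A. At 50 kb the same subtraction left -0.10, -0.09 and -0.04.

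MDM2 had the largest change among the genes measured in all windows, without passing the test. Its start site is at 69.202 Mb of chromosome 12. The 100 kb windows ran from 8.36 to 8.78 with DMSO and from 7.79 to 8.10 with PT2399, so that the 2 ranges did not overlap. The 50 kb windows ran from 7.50 to 8.13 and from 6.15 to 7.52, with a slight overlap. The mean change was -0.75 at 100 kb and -0.95 at 50 kb, or 59.3% and 51.9% of the DMSO level, and -0.63 and -0.82 after subtracting the genome-wide median. All 18 windows were lower with PT2399, and the smallest p of any was 0.0126, with an FDR of 0.179 in the authors' deposited table.

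The error of the change at MDM2 was larger than at other windows of like signal. Its implied standard error had a median of 0.96 at 100 kb, which was 3.12 times the median of 0.31 over 6555 measured windows within 0.25 of its level and higher than in 99.5% of them. At 50 kb it was 0.58 against 0.40, higher than in 97.2% of 13469 windows. BAX, with 0.073 against 0.071 at 100 kb, and CDKN1A, with 0.136 against 0.137, had errors typical of their level. The approximate interval of the MDM2 change was -2.64 to 1.14 at 100 kb and -2.08 to 0.19 at 50 kb, which holds both 0 and a large loss. Whether 1 of the libraries sets this error was not tested, since no value per library was used.

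**Figure D3:**
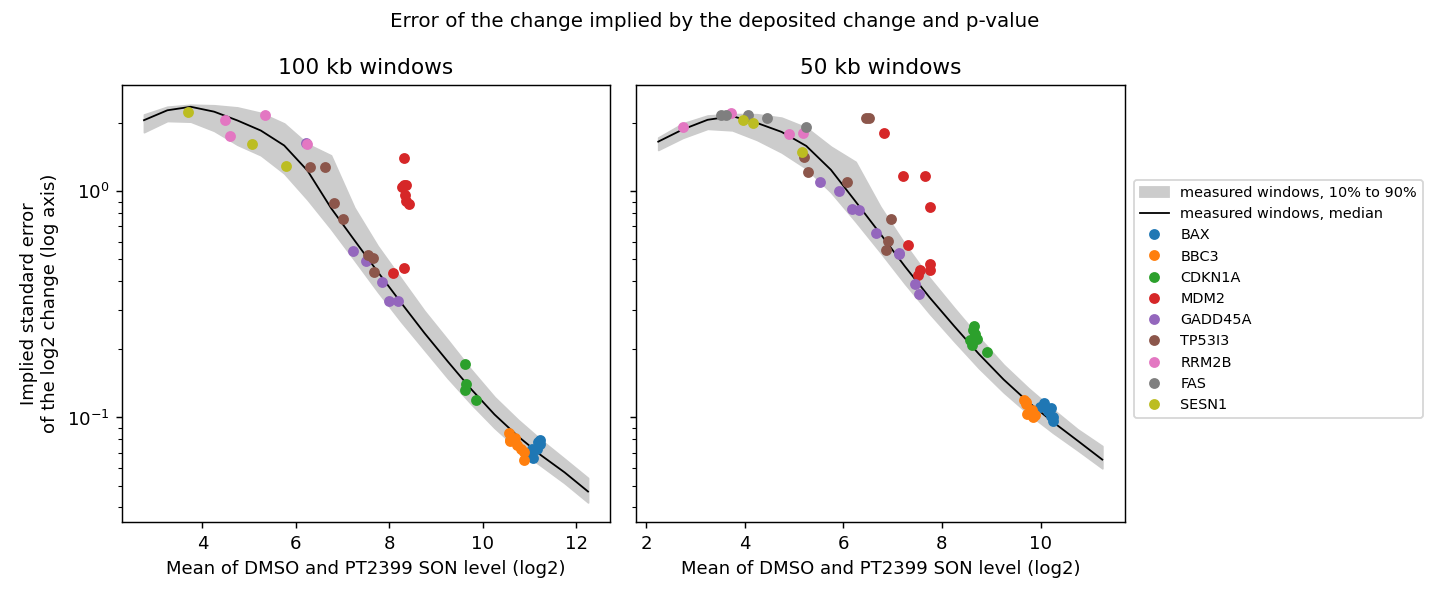
Standard error of the log2 change implied by the deposited change and p-value (log axis) against the mean SON level, for measured windows of the 10 genes with a usable error (coloured points) and for all measured windows (black line, median, with a grey band from the 10th to the 90th percentile). ZMAT3 has no measured window. Most points follow the band, and most of the MDM2 points at 100 kb stand above it, at a median of 0.96 where windows of like level have 0.31.

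TP53I3 was the only gene with a called window, and the call lay at the edge of a region whose SON profile differed in both directions. Its start site is at 24.307 Mb of chromosome 2. As the 100 kb windows were shifted toward higher coordinates, the DMSO level ran from 7.88 down to 5.18 over the first 8 and was at the floor in the last, while PT2399 kept between 7.17 and 7.54 in those 8 and had 6.55 in the last. The changes ran accordingly from -0.67 to 2.25 over 8 windows, and the last window, 24300001 to 24400000, rose from the floor to 6.55, with an FDR of 0.00939 by the authors' deposited table. The same course was seen at 50 kb, from -0.22 in the first window to 6.44 in the last, whose FDR of 0.0161 in the authors' deposited table missed the threshold. The called window is below 2 in DMSO and so is not a measured one.

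On the other side of the TP53I3 start site, toward lower coordinates, the signal was lower with PT2399. TP53I3 lies on the minus strand, so before and past mean lower and higher coordinates here, not upstream and downstream. The window from 24180001 to 24280000, whose near edge is 27 kb before the start site, had 7.93 with DMSO and 4.11 with PT2399, and the authors' deposited table gives this difference of -3.82 an FDR of 6.35e-06. The window 10 kb before that one went from 7.53 to 2.52 and was also called. On the higher side, 3 more windows centred 83 to 103 kb past the start site were called higher, each from the DMSO floor to between 6.79 and 7.07. Over 1 Mb of sequence the SON profile of TP53I3 thus had called windows in both directions, and its mean change, 1.24 at 100 kb and 2.08 at 50 kb, depends on which windows are averaged.

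SESN1 resembled TP53I3 in having DMSO windows at the floor with signal in PT2399, but none was called. Its start site is at 109.416 Mb of chromosome 6. At 100 kb, DMSO was at the floor in 6 of 9 windows and between 2.87 and 5.97 in the others, and PT2399 ran from 3.70 to 5.78 with no window at the floor. The changes of the 6 floor windows reached 5.85, whereas the 2 windows with the highest DMSO level were lower with PT2399. At 50 kb, 4 of 9 windows were at the DMSO floor and 0 at the PT2399 floor. The lowest FDR was 0.0707 at 100 kb and 0.147 at 50 kb in the authors' deposited tables.

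At RRM2B the sign of the mean change turned with the window size. The gene lies at 103.251 Mb of chromosome 8, and its mean change was -1.77 at 100 kb and 0.91 at 50 kb. The 100 kb windows ran from the floor to 6.68 with DMSO and from the floor to 5.78 with PT2399, with 3 and 4 of 9 at the floor. Its lowest FDR was 0.0430 in the authors' deposited table, for a 100 kb window that went from 5.89 to the floor. At 50 kb, 2 of 9 windows were at the DMSO floor, with changes of 4.71 and 5.02 that have no interpretable size. Over the measured windows of both sizes the mean change was -0.73, with single windows from -3.49 to 1.18. The positive mean at 50 kb thus rests on changes from the floor.

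At FAS, at 90.750 Mb of chromosome 10, PT2399 was at the floor in all 9 windows of 100 kb but in only 1 of 9 at 50 kb, where the other 8 ran from 2.39 to 5.69. DMSO was at the floor in 5 of the 9 windows of 100 kb and in 0 at 50 kb. The mean change was -1.84 at 100 kb and -0.33 at 50 kb, with single 50 kb windows from -4.53 to 2.01 and a lowest FDR over both sizes of 0.246 in the authors' deposited tables. The stated position lies on a window boundary, and 500 bp farther on 1 window of each size is replaced, which gave -1.32 and -0.40. At ZMAT3, at 178.789 Mb of chromosome 3, all 18 windows were at the floor in both treatments, and the change of -0.04 is only the gap between the floors.

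The surroundings differed as much as the start sites. Within 500 kb of the start site, all 90 windows of 100 kb were measured around BAX, BBC3, CDKN1A and MDM2, with lowest DMSO levels of 10.62, 10.44, 9.25 and 6.27. Around GADD45A 49 of 90 windows were at the DMSO floor, around RRM2B 51 of 90, around TP53I3 28 of 90, around SESN1 18 of 90 and around FAS 71 of 91. Around ZMAT3 all 90 were. In DMSO, MDM2 lay at a local maximum, with its highest window within 500 kb, 8.78, centred 12 kb from the start site. This did not hold with PT2399, where that window had 7.84 and a window centred 292 kb toward lower coordinates had 8.17. The highest DMSO window around GADD45A, 8.45, was centred 39 kb away. Around FAS, RRM2B and SESN1 the highest DMSO windows were 340, 459 and 334 kb away, at 6.84, 8.86 and 8.59.

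Called windows within 1 Mb mostly lay outside the windows that hold the start sites. The nearest lower 100 kb window was 402 kb from BAX (change -0.26, FDR 0.00790), 555 kb from BBC3 (-0.32, FDR 0.00510) and 578 kb from MDM2 (-1.58, FDR 0.00214), in the authors' deposited tables. Near RRM2B, a 100 kb window 169 kb from the start site toward higher coordinates rose from the DMSO floor to 7.21, for which the authors' deposited table has an FDR of 0.000189. At 50 kb, FAS and SESN1 also had a called lower window, 315 and 281 kb from the start site. These went from 6.72 and 6.71 with DMSO to the PT2399 floor. SESN1 had 3 called higher windows of 50 kb as well. The nearest lay 384 kb from the start site toward higher coordinates, at 6.55 from the DMSO floor (FDR 0.00743 in the authors' deposited table). CDKN1A, GADD45A and ZMAT3 had 0 called windows of either size and direction within 1 Mb. At 100 kb, 4 of the 10 genes had a lower window and 2 a higher window within that distance, and TP53I3 had both. Over the genome 22.6% of points had a called lower and 9.09% a called higher 100 kb window that near. At 50 kb the counts were 6 and 2 of the 10 genes, and the genome shares 17.9% and 7.24%. The nearest lower 50 kb window was a measured one for BBC3 and BAX. For MDM2, FAS, SESN1 and TP53I3 it was not, because PT2399 was below 2. The 6 genes are not all separate loci. The nearest lower 50 kb windows of BBC3 and BAX, 48470001 to 48520000 and 48480001 to 48530000 on chromosome 19, overlap.

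**Figure D4:**
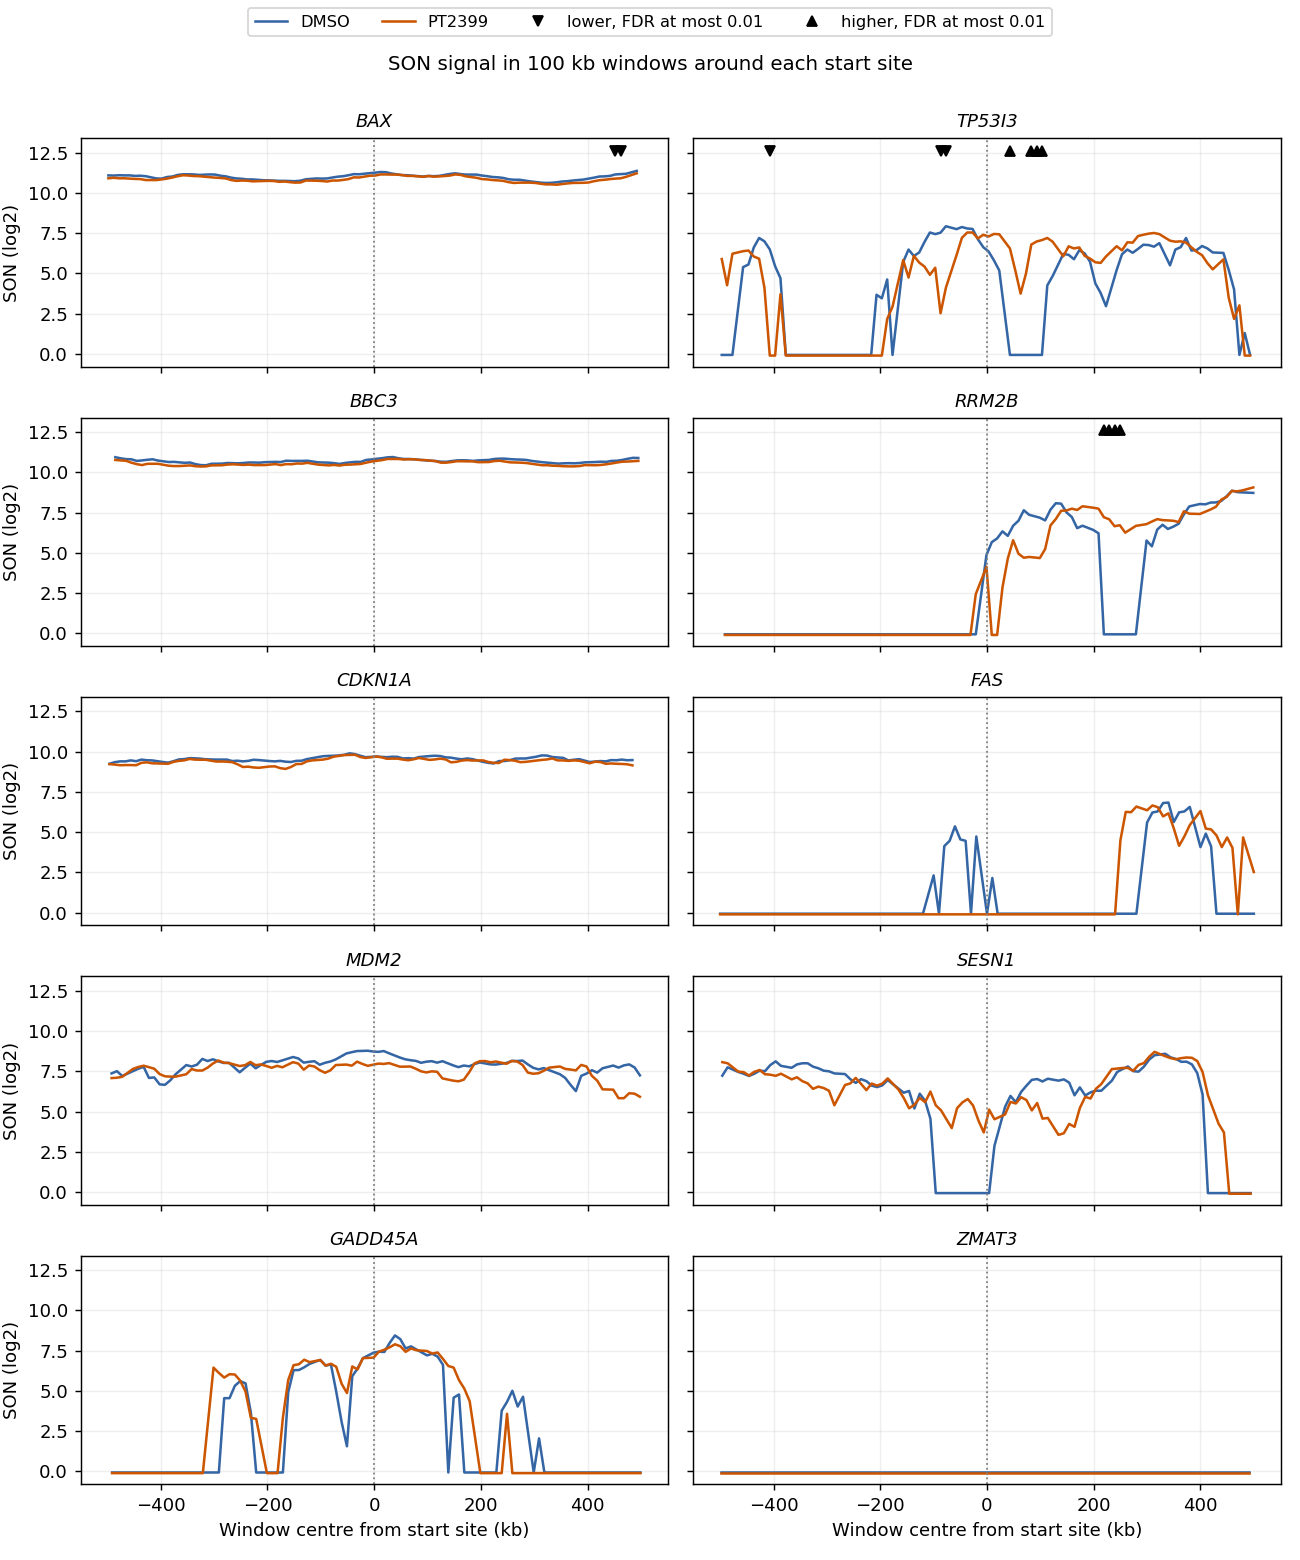
SON signal (log2 concentration) in 100 kb windows within 500 kb of each start site (dotted line) for DMSO (blue) and PT2399 (orange), plotted by the distance of the window centre, with triangles for windows at the authors' FDR of at most 0.01. BAX, BBC3 and CDKN1A are flat and high in both treatments, and ZMAT3 is at the floor throughout. At TP53I3 the lines cross near the start site, with called lower windows toward lower coordinates and called higher windows toward higher ones.

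Other genes of the p53 pathway could be followed only by symbol, in the authors' deposited lists of genes at lower windows. Of 47 such genes, 2 were listed, both at 100 kb and at 50 kb: SFN, the 14-3-3 sigma protein of cell cycle arrest, and TP73, a p53 family transcription factor. By role these were 1 of 8 cell cycle genes and 1 of 11 genes that control or resemble p53, with 0 of 13 apoptosis genes, 0 of 5 DNA repair genes and 0 of 10 genes of metabolism and growth. The 47 genes thus had 4.26% in the 100 kb list, and 4.28% of the other 19999 protein-coding genes were in it. At 50 kb the shares were 4.26% and 1.10%, with only these 2 genes behind the first. Both were already known to be listed when the 47 genes were chosen, and higher windows have no such list here.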

How the data were processed

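SON TSA-seq libraries of 786-O cells were compared between DMSO and PT2399. Bowtie2, bedtools, Picard and DiffBind are named in the submitters' processing notes, with the build hg19. The sources used here do not give their versions and settings, the scaling of libraries or the handling of inputs. The deposited tables hold, per the file headers, log2 concentrations per treatment, a log2 fold, and a p-value and FDR per window, in 9 sets of 100 kb windows (step 10 kb) and 9 of 50 kb (step 5 kb).

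The deposited tables allow no new model, so the authors' FDR was used at a maximum of 0.01. It was read as belonging to each set, from Benjamini-Hochberg values without windows at the floor in both treatments (FDR below 0.3). Within a set their median was 100.7% of it at 100 kb and 105.6% at 50 kb, and over all sets 101.0% and 105.0%. The 1st to 99th percentiles were tighter within a set, 100.1% to 101.2% and 100.2% to 106.1%. Over all sets they were 91.8% to 113.5% and 96.9% to 116%. Changes are treatment minus control, averaged over the windows holding a start site. Ranks are the percent of windows of the same set with a lower DMSO level. Implied standard errors are the absolute change divided by the normal quantile of p, for changes of at least 0.1 and p below 0.8. The recentred test was tested on simulated data without floor windows and with true changes only at high SON levels. At low levels the simulated errors were smaller than those implied here, so the simulation does not cover low levels. Named genes were the 10 members, listed pathway genes and the nearest called windows within 1 Mb. Members, lists and the p53 consensus search were chosen with earlier results of these data known. RefSeq tables are of GRCh38.p14 and gave names, neighbours and promoter sequences only. Alternatives covered the FDR maximum, the adjustment, window size, averaging, centring, a filter on low values and the start position. Calculations used scipy 1.17.1, pandas 2.3.3 and numpy 2.4.6 in Python 3.11.15, and figures matplotlib 3.10.9.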

Additional observations from a re-analysis of the deposited data

How the results depend on the processing

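Counts of genes with a called window depended on the threshold. At an FDR maximum of 0.05 in the authors' deposited tables, lower calls went from 0 to 2 genes at 100 kb (BAX and RRM2B) and from 0 to 1 at 50 kb (BAX), and higher calls at 50 kb from 0 to 1 (TP53I3). At 0.1 the counts were 2 and 1 lower, and 2 (SESN1 and TP53I3) and 1 higher. The single higher call at 100 kb became 0 at a maximum of 0.001, 0 with Benjamini-Hochberg adjustment over all windows of all sets, floor windows included, and 0 after recentring, which tests measured windows alone and so leaves the TP53I3 window out. The median of the 10 mean changes over both sizes, -0.14, became -0.0183 after recentring on the measured windows, by construction, and moved by less than 0.1 under the other 7 alternatives. The sign of a mean change turned for GADD45A at 100 kb alone, for RRM2B at 50 kb alone, for FAS in measured windows alone, and for CDKN1A and ZMAT3 after recentring. It also turned for GADD45A with the median over windows, and for GADD45A, FAS and RRM2B with the most central windows; the cause was not tested. The median DMSO rank over both sizes, 71.7%, became 24.8% against measured windows. No paired analysis was possible because the tables give 1 value per treatment, and for the same reason no library was left out. Depth per library is unknown, and the error of a change is larger at lower SON levels. At 100 kb the implied error was nonetheless larger at MDM2 (0.964) than at TP53I3 (0.819), whose level is lower.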

Other observations

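Around TP53I3, 3 of its 10 nearest protein-coding neighbours (5 on each side in RefSeq order) appeared among genes at lower 100 kb windows, as listed in the authors' deposited table: MFSD2B, WDCP and FKBP1B. Around MDM2, 1 of 10 was, FRS2, which encodes an adaptor of FGF receptor signalling. Around each of the other 8 genes 0 of 10 neighbours were listed. In all, 4 of 100 neighbours were listed, close to the 4.28% of other protein-coding genes. TP53I3 itself was not listed, although the window called lower nearest to it ended 27 kb from its start site.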
